A study of Mus musculus with 20 samples.

Results

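Collagens and laminins are the structural proteins of basement membranes and of the fibrous matrix around vessels and meninges, and their genes were described here across 5 groups of mouse hypothalamus libraries. The family was taken as all protein-coding genes whose symbol names a collagen or laminin chain. Of 55 such genes among the 54532 genes of the deposited count table, 52 had at least 10 counts in 3 or more of the 20 libraries and are called members below. They were 41 collagen and 11 laminin genes. Just inside the limit were Col2a1 and Col5a3, each with 10 counts in 3 libraries, and just outside it was Col22a1 with 2 libraries, while Col17a1 and Col10a1 reached 10 counts in 0 libraries.

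RNA sequencing measured whole hypothalamus of male C57BL/6J mice. Young control mice were 3 months old with 1 week of control diet (n = 4). Acute control (n = 5) and acute Gly-Low mice (n = 4) were 4 months old with 1 week of control diet or of Gly-Low, a diet carrying compounds meant to lower glycation. Old control (n = 4) and old Gly-Low mice (n = 3) were 25 months old with 5 months of either diet. Whether 1 mouse gave 1 library is not in the labels, and p-values therefore measure only how these libraries spread, which may be technical. The comparisons asked what 1 week of Gly-Low did in young mice, how old differed from young, and what 5 months of Gly-Low did in old mice.

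Each collagen molecule is a triple helix of alpha chains, and the classes differ in what the helix builds. Types I, III and V form fibrils, type IV forms the net of basement membranes, type VI forms beaded microfibrils, and types IX, XII, XIV and XIX sit on fibrils. A laminin is a cross-shaped trimer of an alpha, a beta and a gamma chain that binds cells to the type IV net. In the brain these genes are known mainly from endothelial cells, mural cells, fibroblasts of the meninges and astrocyte endfeet, while the transmembrane collagen Col25a1 is made by neurons. Collagens are long-lived and are a textbook target of glycation, a protein change that RNA counts do not measure.

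Promoter windows of the members that the comparisons turn on are shown as the 250 bases before the RefSeq start in GRCm38.p6, 5′ to 3′ on the strand of the gene. Capitals mark the box CCAAT, the promoter element written TATAAA and the GC-rich element written GGGCGG, each searched on both strands, and the Lama2 window holds none of them. Without a correction for transcript length, Col25a1 and Lama2 were lower and Col8a2 higher in acute Gly-Low than in acute control. With such a correction Lama2 did not pass. Col3a1 had the smallest p in both comparisons of old mice, in which no member passed. The Col25a1 window lies at chr3:130180595-130180844 on the plus strand, the Lama2 window at chr10:27616943-27617192 on the minus strand, the Col8a2 window at chr4:126286544-126286793 on the plus strand and the Col3a1 window at chr1:45311288-45311537 on the plus strand. The windows of Col25a1 and Lama2 lie inside the longer GENCODE gene models and overlap no exon.
Col25a1: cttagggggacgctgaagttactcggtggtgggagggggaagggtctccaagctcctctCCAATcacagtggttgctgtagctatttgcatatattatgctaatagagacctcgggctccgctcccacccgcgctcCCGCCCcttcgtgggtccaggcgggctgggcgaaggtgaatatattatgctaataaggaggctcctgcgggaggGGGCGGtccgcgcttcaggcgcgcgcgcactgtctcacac
Lama2: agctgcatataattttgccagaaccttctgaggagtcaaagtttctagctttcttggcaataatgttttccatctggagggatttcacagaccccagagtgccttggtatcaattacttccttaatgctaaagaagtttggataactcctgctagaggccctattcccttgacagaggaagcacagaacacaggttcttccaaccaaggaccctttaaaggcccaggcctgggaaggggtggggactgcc
Col8a2: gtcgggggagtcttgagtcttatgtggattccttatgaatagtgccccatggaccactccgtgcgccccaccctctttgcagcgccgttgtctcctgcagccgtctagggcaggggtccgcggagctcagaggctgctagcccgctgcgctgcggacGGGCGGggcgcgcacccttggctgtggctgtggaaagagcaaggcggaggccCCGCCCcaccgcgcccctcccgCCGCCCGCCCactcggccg
Col3a1: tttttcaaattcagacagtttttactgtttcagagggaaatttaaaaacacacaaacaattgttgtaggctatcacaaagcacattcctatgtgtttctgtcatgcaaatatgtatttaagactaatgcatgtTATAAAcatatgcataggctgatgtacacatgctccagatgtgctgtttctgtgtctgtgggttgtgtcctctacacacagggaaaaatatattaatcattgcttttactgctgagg

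The 4 windows differed in base content, with 70.0% G and C for Col8a2, 60.4% for Col25a1, 47.2% for Lama2 and 35.2% for Col3a1. RefSeq gave 42 promoter windows for 38 of the 52 members. GGGCGG, on either strand, was in 24 of these 42 windows (57.1%) and in 32.7% of all 32851 windows of the same length. CCAAT was in 13 of 42 (31.0%, against 33.8% of all windows) and TATAAA in 3 of 42 (7.14%, against 12.4%), also on either strand. Matches of 1 motif may overlap, as in the run of capitals near the end of the Col8a2 window. A match is a description of letters and not of a bound site.

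The type IV genes lie in head-to-head pairs. Col4a2 starts at position 11312805 on the plus strand of chromosome 8 and Col4a1 at position 11312826 on the minus strand, so their first exons overlap by 22 bases. The stretch chr8:11312801-11312830, read on the plus strand with the overlap in capitals, shows how close the starts are.
Col4a2 and Col4a1 start sites: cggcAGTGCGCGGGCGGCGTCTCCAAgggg

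Levels were compared between genes as CPM scaled by the edgeR library factors (scaled CPM), divided by the median transcript length in kilobases. Col25a1 (chr3:130131501-130599877) stood highest at 17.0 scaled CPM per kb, averaged over the 20 libraries. Next came the laminin chain Lamb2 (2.45), Lamb1 (2.20), the transmembrane collagen Col23a1 (2.04), Lamb3 (1.87), Lama2 (1.86), the type I chain Col1a2 (1.84), the type IX chain Col9a2 (1.82) and Lamc1 (1.59), all in scaled CPM per kb. The lowest was Col7a1, the anchoring fibril collagen of skin, at 0.022 scaled CPM per kb. The type IV chains Col4a1 and Col4a2 stood at 0.444 and 0.490 scaled CPM per kb. From Lamb2 to Lamc1 the neighbours in this order lay closer together than their spread over libraries, and their order is not fixed by these data.

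**Figure D1:**
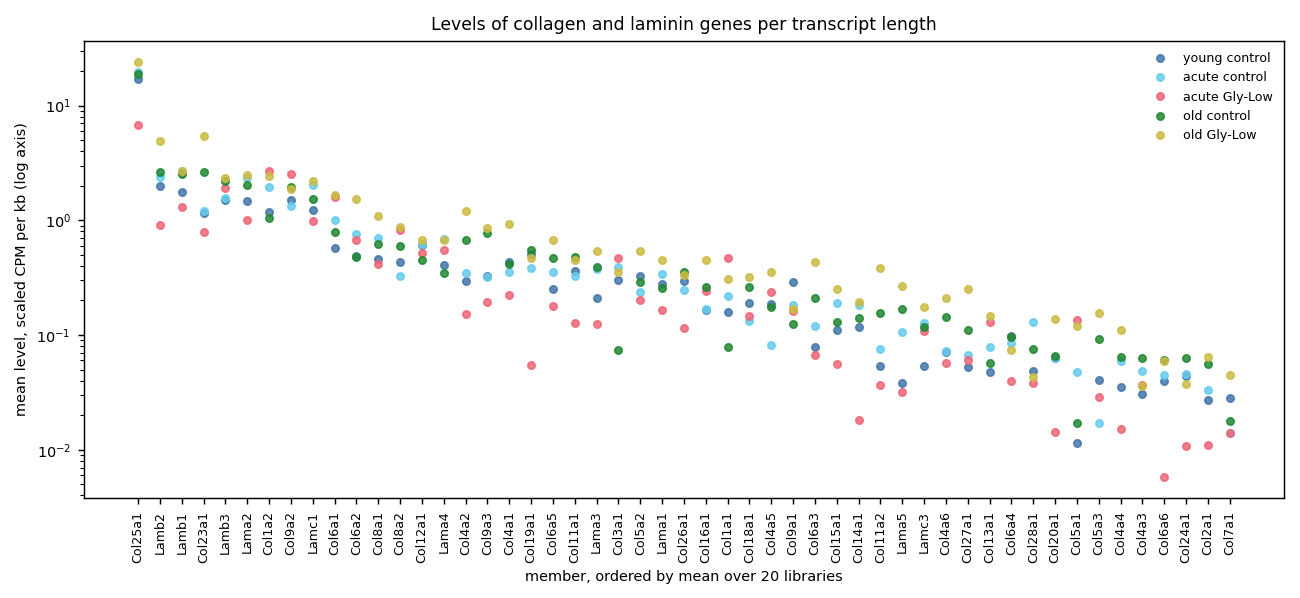
Mean scaled CPM per kb of transcript (log axis) of 51 members in each group (a mean of 0 is not drawn), 1 point per group, members ordered by their mean over all 20 libraries. Col25a1 stands apart at 17.0 scaled CPM per kb, and acute Gly-Low points lie below the others for many members.

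The library kit did not keep strand, and a member and an antisense gene over it could share reads. Of the members, 32 overlap another annotated gene, 21 of them on the other strand, and 5 overlap a protein-coding gene. These 5 are Lamb3 with G0s2 and Hsd11b1, Col18a1 with Slc19a1, Col9a3 with Tcfl5, and Col4a1 and Col4a2 with each other, and their counts are less certain for that reason.

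Depth ran from 15848372 to 27399753 counts per library, and the hypothalamic neuropeptide genes Pmch, Hcrt, Oxt and Avp were detected in each library. The sum of 10 hypothalamus markers, these among them, did not overlap between the acute groups. It was 316 to 1080 scaled CPM in acute control and 1283 to 2354 in acute Gly-Low. The length slope of a library, the change of its log2 deviation from the mean library per log2 unit of transcript length, was −0.43 to −0.23 in the 4 acute Gly-Low libraries and 0.14 to 0.23 in the 5 acute controls. Mitochondrial transcripts took 17.0% to 23.3% of counts in acute Gly-Low and 5.35% to 9.11% in acute control. Young control 2 had a length slope of −0.27 and 17.2% mitochondrial counts, and old control 3 had −0.20 and 15.8%. Transcripts of 10 pituitary marker genes summed to 61496 scaled CPM in acute control 2, 32652 in acute control 5 and 3739 in acute control 3, against 21.5 to 1232 in the other libraries. Old Gly-Low 1 and old control 4 had the highest GC slopes, the same deviation per 10 percentage points of transcript G and C, at 0.598 and 0.539. The members are long and rich in G and C, with a median transcript length of 5900.5 bases against 2444 for 19044 genes kept over all libraries, and a median G and C content of 54.3% against 50.1%. Results are therefore given with and without these libraries and corrections where a value changed.

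After 1 week of Gly-Low, 6 laminin chains and 5 collagens were lower and 4 collagens were higher than in acute controls without a correction for transcript length, and with the length offset described below 0 laminins and 3 collagens were lower. Of 52 members, 41 had counts high enough to be tested, and 15 of them passed the edgeR quasi-likelihood test at an adjusted p under 0.05, 4 higher and 11 lower. In the same comparison 58.3% of all 17161 genes tested passed, 27.8% higher and 30.5% lower, so the share among members was below that of all genes. The median log2 fold change was −0.60 over the members tested and −0.07 over all genes tested. The acute Gly-Low libraries lay wholly above the acute controls for 2 members and wholly below for 8, of 41, where 23% of all genes lay above and 23.9% below (46.9% in either direction). In bulk tissue, fewer cells of a type and less RNA per cell cannot be told apart.

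Of 11 laminin chains tested, 6 fell and 0 rose in the uncorrected fit, with a median log2 fold change of −1.04, where 30.5% of all genes fell and 27.8% rose. With the length offset, and likewise with the offset for length and G and C content, 0 chains fell and 1 rose, at medians of −0.32 and −0.10. Lama2 (chr10:26980036-27619758), the alpha chain of astroglial and muscle basement membranes, had 13.0, 20.1, 17.2, 14.7 and 16.4 scaled CPM in the 5 acute controls. In acute Gly-Low it had 8.58, 6.12, 5.46 and 7.59 scaled CPM, all below every acute control. Its mean fell from 16.3 ± 2.67 (SD, n = 5) to 6.94 ± 1.41 (SD, n = 4) scaled CPM, a log2 fold change of −1.22 ± 0.19 (SE, edgeR adjusted p = 7.89e-05). Young controls 1 to 3 had 8.59, 6.83 and 9.17 scaled CPM of Lama2, so acute Gly-Low overlapped young control. Old control 3 had 8.84.

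Lamb1 (chr12:31265234-31329644), the beta chain of the common vascular laminins, had 11.2, 17.8, 14.7, 16.8 and 16.6 scaled CPM in acute control and 6.27, 7.22, 8.41 and 7.84 in acute Gly-Low. The acute groups did not overlap, and the log2 fold change was −1.04 ± 0.18 (SE, edgeR adjusted p = 0.000197). Young controls 1 to 3 had 9.47, 5.78 and 6.37 scaled CPM of Lamb1, so acute Gly-Low overlapped young control. The usual partner of Lamb1 is Lamc1 (chr1:153218922-153332786), the gamma chain of nearly all brain laminins. Lamc1 fell by the same log2 fold change, −1.04 ± 0.27 (SE, edgeR adjusted p = 0.00453). Here the groups overlapped, since acute control 1 had 8.37 scaled CPM and acute Gly-Low 1 had 10.9. Lamb2, the beta chain of synaptic and vascular laminins, fell by 1.38 ± 0.38 (SE) on the log2 scale, also with overlap because acute control 1 stood at 3.52 scaled CPM.

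Lama3, an alpha chain of epithelial basement membranes, fell by 1.58 ± 0.46 (SE) on the log2 scale (edgeR adjusted p = 0.00818), with overlap between the groups. Lamb3, a beta chain of the same membranes, did not pass, at 0.31 ± 0.21 (SE, log2). Lama1, an alpha chain of the pial surface, at −1.02 ± 0.43 (SE, log2, edgeR adjusted p = 0.0545), and Lama5, a vascular alpha chain, at −1.76 ± 0.74 (SE, log2, edgeR adjusted p = 0.0528), missed the threshold. Lama4, the alpha chain of endothelial laminin, had a log2 fold change of −0.29 ± 0.28 (SE).

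Among the members tested, the largest fall in scaled CPM was in Col25a1, which is cut at the cell surface and is found in amyloid plaques. It had 73.2, 79.6, 97.1, 98.6 and 107 scaled CPM in the acute controls and 26.0, 35.6, 34.7 and 29.1 in acute Gly-Low. Every acute Gly-Low library also lay below every library of the other 4 groups, the lowest of which was young control 2 at 52.3 scaled CPM. The log2 fold change was −1.52 ± 0.15 (SE, edgeR adjusted p = 1.25e-06), and leaving out any 1 library kept it between −1.59 and −1.45.

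Col19a1 (chr1:24261890-24587472), a fibril-associated collagen made by some interneurons, had 1.05, 1.58, 1.24, 1.38 and 2.12 scaled CPM in acute control. In acute Gly-Low it had 0.0609, 0.164, 0.364 and 0.247 scaled CPM, which were 1, 3, 8 and 4 counts. The groups did not overlap and the log2 fold change was −2.74 ± 0.52 (SE, edgeR adjusted p = 0.000427). Col14a1, a fibril-associated collagen of connective tissue, fell from 1.18 ± 0.656 (SD, n = 5) to 0.117 ± 0.0819 (SD, n = 4) scaled CPM, with 0 to 4 counts per acute Gly-Low library. Its log2 fold change was −3.21 ± 0.69 (SE, edgeR adjusted p = 0.00108). The short-chain collagen Col8a1 (−0.74 ± 0.28, SE, log2) and the fibril-forming Col11a1 (−1.35 ± 0.52, SE, log2) completed the lower side.

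On the higher side, Col9a2 (chr4:121039385-121055322), a chain of the fibril-associated type IX collagen, had 3.52, 3.20, 5.47, 3.33 and 3.86 scaled CPM in acute control. It had 8.89, 6.40, 7.64 and 6.85 scaled CPM in acute Gly-Low, all above every acute control. The log2 fold change was 0.96 ± 0.22 (SE, edgeR adjusted p = 0.00203). Col8a2 (chr4:126286793-126314330), a net-forming collagen known from the corneal endothelium, had 0.666, 0.8288, 1.96, 1.63 and 1.99 scaled CPM in acute control and 4.57, 4.97, 2.27 and 2.53 in acute Gly-Low. These groups did not overlap either, and the log2 fold change was 1.35 ± 0.40 (SE, edgeR adjusted p = 0.00885).

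Col4a5, a basement membrane chain encoded on the X chromosome, rose from 0.523 ± 0.214 (SD, n = 5) to 1.51 ± 0.851 (SD, n = 4) scaled CPM, with a log2 fold change of 1.55 ± 0.51 (SE, edgeR adjusted p = 0.018). Acute Gly-Low 3 and 4, at 0.819 and 0.741 scaled CPM, lay next to acute control 5 at 0.747, so the groups overlapped, and the call was lost when 2 of the 9 libraries were left out in turn. Col5a1, which starts type V and type I fibrils, had a log2 fold change of 1.51 ± 0.62 (SE, edgeR adjusted p = 0.0481) on 3 to 37 counts per library. Its call was lost in 7 of the 9 fits without 1 library, where the adjusted p reached 0.255.

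**Figure D2:**
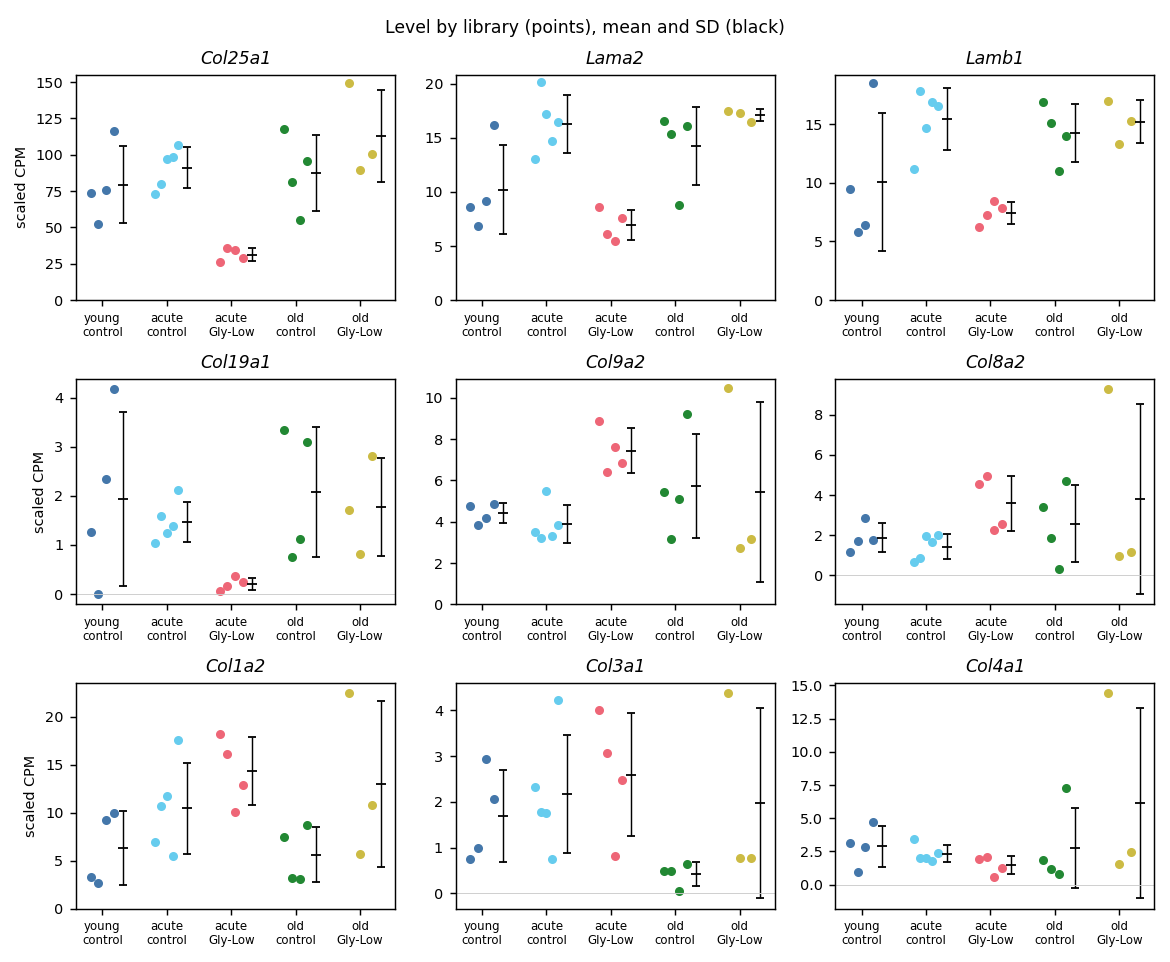
Scaled CPM of 9 members in each library (points, by group) with the group mean and SD in black. Col25a1, Lama2, Lamb1 and Col19a1 are lower and Col9a2 and Col8a2 higher in each acute Gly-Low library than in each acute control, and old Gly-Low 1 stands above its group for Col1a2, Col3a1, Col4a1, Col8a2 and Col9a2.

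The main fibrillar chains did not pass in the acute arm. Col1a2 (chr6:4504814-4541544), the alpha 2 chain of type I collagen, stood at 10.5 ± 4.74 (SD, n = 5) in acute control and 14.3 ± 3.57 (SD, n = 4) scaled CPM in acute Gly-Low, a log2 fold change of 0.47 ± 0.29 (SE). Col1a1 (chr11:94936224-94953042) had 1.58, 0.492, 1.00 and 7.96 scaled CPM in acute Gly-Low, where library 4 was far above the other libraries, and 0.565 to 1.91 in acute control. Its log2 fold change was 1.08 ± 0.65 (SE), and that of Col3a1, which shares fibrils with type I, was 0.27 ± 0.49 (SE). The type VI chain Col6a1 (chr10:76708792-76726168) had a log2 fold change of 0.70 ± 0.35 (SE, edgeR adjusted p = 0.105).

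The 2 main basement membrane collagens did not pass. Col4a2 had 1.81, 2.22, 2.92, 1.84 and 2.45 scaled CPM in acute control and 1.34, 1.26, 0.136 and 1.23 in acute Gly-Low, which did not overlap, with a log2 fold change of −1.17 ± 0.49 (SE, edgeR adjusted p = 0.0511). Acute Gly-Low 3 had 3 counts of it. Col4a1 had 2.34 ± 0.667 (SD, n = 5) and 1.46 ± 0.689 (SD, n = 4) scaled CPM, with overlap, and a log2 fold change of −0.67 ± 0.40 (SE). Col4a1 was at 0.15 and Col4a2 at −0.32 (log2) with the length offset, with the offset for length and G and C content at 0.45 and 0.085, and with the length slope as a covariate at 1.94 and 0.90. By class, in the uncorrected fit, 2 of 7 fibril-forming collagens passed (1 higher, 1 lower), 1 of 5 type IV (higher), 0 of 5 type VI, 3 of 7 fibril-associated (1 higher, 2 lower), 1 of 2 transmembrane (lower) and 2 of 4 short-chain and other collagens (1 higher, 1 lower). Of all 17161 genes tested in that fit, 58.3% passed, 27.8% higher and 30.5% lower.

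These calls moved with the length of the transcripts. With an offset that removed each library's trend over 40 bins of transcript length, 10 members were higher and 3 lower, in place of 4 and 11, and the median log2 fold change of the members was 0.21. Of all genes, 23.9% were then higher and 23.9% lower (47.7% in all). The 3 lower were Col25a1 (−0.87 ± 0.12, SE, log2), Col19a1 (−2.30 ± 0.51) and Col14a1 (−2.42 ± 0.68). No laminin was lower with this offset, Lama2 being at −0.33 ± 0.20 (SE, log2, edgeR adjusted p = 0.192) and Lamb1 at −0.32 ± 0.16 (SE, log2, edgeR adjusted p = 0.119). Lamb3 was higher with it, at 0.84 ± 0.22 (SE, log2), as were Col1a1, Col1a2, Col6a1, Col12a1 and Col16a1 beside the 4 named above. An offset for length and G and C content together gave 10 higher and 3 lower again, where 22.9% of all genes were higher and 22.8% lower (45.6% in all).

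A further fit took all 20 libraries with their length slopes as a covariate. In it 11 members were higher and 0 lower, of 51 tested, where 11.2% of all genes were higher and 8.76% lower (20% in all). Col9a2 (1.72 ± 0.55, SE, log2) and Col8a2 (3.73 ± 1.17, SE, log2) were higher in that fit too. Col25a1 was at −0.31 ± 0.18 (SE, log2, edgeR adjusted p = 0.233) and Lama2 at −0.34 ± 0.32 in it, Col19a1 was at −0.10 ± 0.85 (SE, log2, edgeR adjusted p = 0.956) and Col14a1 at −0.36 ± 1.17 (SE, log2, edgeR adjusted p = 0.872), and Lamb2 turned to 2.54 ± 0.60 (SE, log2, edgeR adjusted p = 0.00557). That fit moved the median of all genes to 0.17. The acute Gly-Low length slopes and the acute control length slopes do not overlap, so the diet and the length trend of these libraries cannot be told apart within this arm.

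**Figure D3:**
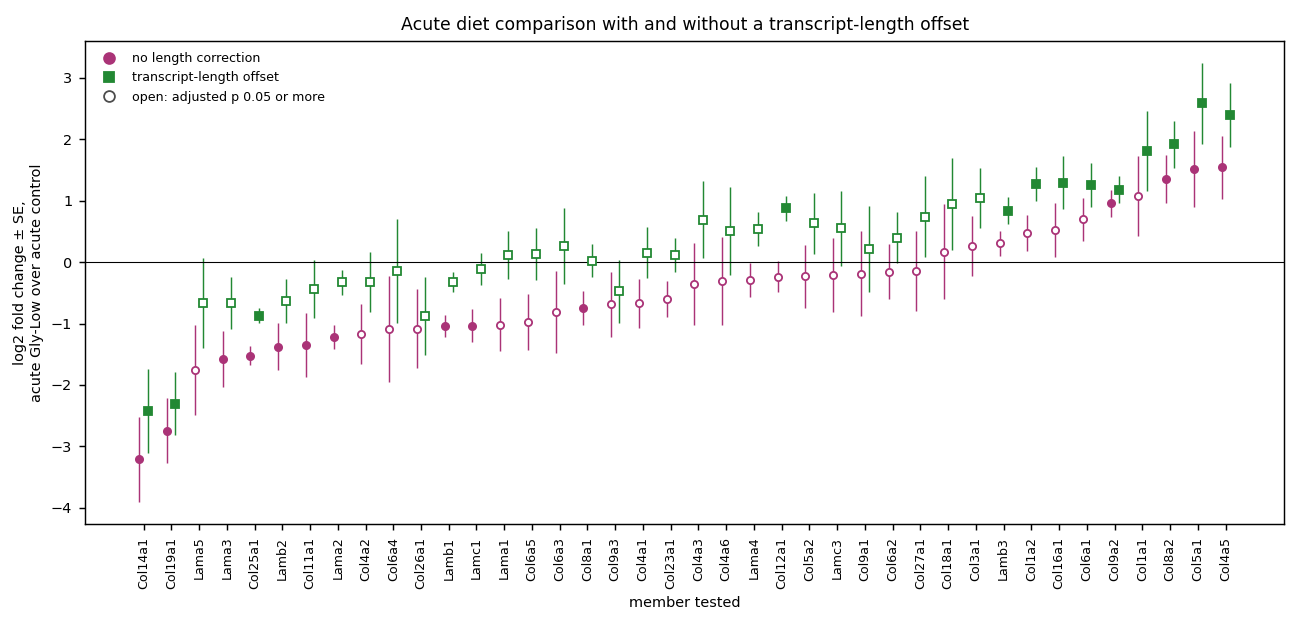
Log2 fold change of acute Gly-Low over acute control with its SE for 40 of the 41 members tested, without correction (circles) and with the transcript-length offset (squares). Filled symbols passed at an adjusted p under 0.05. The offset moves nearly all members upward, and Col14a1, Col19a1 and Col25a1 are lower either way.

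Without acute controls 2, 3 and 5, which held pituitary transcripts, 5 members were higher and 4 lower, where 19.7% of all genes were higher and 21.1% lower (40.8% in all). The 4 lower were Col25a1, Lama2, Lamb1 and Col19a1, and the higher were Col9a2, Col8a2, Col1a2, Col6a1 and Col18a1. Lamc1 was then at −0.48 ± 0.30 (SE, log2) and Lamb2 at −0.56 ± 0.41. In a fit that added the other 11 libraries, 1 member was higher and 7 lower, where 46.8% of all genes passed. With the replicate number as a block, 4 were higher and 9 lower, where 24.2% of all genes were higher and 25.8% lower (50% in all). Of the 15 members, Col25a1 and Col19a1 were lower and Col8a2 and Col9a2 higher in the uncorrected fit, with both offsets, with the replicate number as a block and without those 3 acute controls. With the length slope as a covariate Col25a1 and Col19a1 did not pass. In the fit that added the other 11 libraries, where 1 member was higher, Col8a2 and Col9a2 did not both pass.

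Markers of several cell types moved in the same comparison, in which 27.8% of all genes rose and 30.5% fell. Of 13 marker genes of meningeal fibroblasts, 10 rose and 1 fell in acute Gly-Low, with a median log2 fold change of 1.08, and their summed level was 334 to 561 scaled CPM against 209 to 401 in acute control. Of 10 endothelial markers, 8 fell and 1 rose, with a median of −1.43 and sums of 94.9 to 118 against 131 to 202 scaled CPM. None of these 23 markers was at 0 in any library. Of 5 neuron markers 3 fell and 0 rose (median −0.72), with sums of 2097 to 2488 scaled CPM in acute Gly-Low and 2575 to 3212 in acute control, of 5 markers of oligodendrocyte precursors 4 fell and 0 rose (median −1.35), and of 9 pituitary markers tested 8 fell and 0 rose (median −3.78). Among the neuron markers Syt1 fell by 1.52 on the log2 scale, while Snap25 stood at 0.06. Of 9 pericyte and smooth muscle markers tested 1 rose and 3 fell, and of 5 astrocyte markers 1 rose and 2 fell. Of 10 hypothalamus markers 4 rose and 3 fell, of 7 choroid plexus markers 2 rose and 3 fell, and of 5 microglia markers 1 rose and 2 fell. With the length offset 2 neuron markers, 4 precursor markers, 6 endothelial and 8 pituitary markers were lower, and 12 meningeal markers were higher. The part of these cell types in the changes of collagens and laminins, that of neurons in Col25a1 included, was not tested.

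The genes that make, cut and bind these proteins were read from lists, whose counts stand beside 27.8% of all genes higher and 30.5% lower without correction and 23.9% each way with the length offset. No list was tested as a set, and the counts are descriptions. Of 18 genes for modification, folding and secretion of collagen, 1 rose and 9 fell with a median log2 fold change of −0.67, and 0 were higher and 9 lower with the length offset. Mia3, which loads bulky procollagen into transport vesicles, fell from 83.3 to 25.9 mean scaled CPM (−1.67 ± 0.16, SE, log2), and Plod3, a lysyl hydroxylase, fell by 1.54 ± 0.20 on the log2 scale. Ppib, a prolyl isomerase of procollagen folding, rose (0.67 ± 0.13, SE, log2) but was lower with the length offset (−0.31 ± 0.11, SE, log2). Of 10 processing and cross-linking genes tested, 3 fell and 0 rose, among them the propeptide proteases Adamts2 (−1.21 ± 0.25) and Adamts3 (−1.90 ± 0.52). Of these 10 genes, 1 was higher and 1 lower with the length offset, and Adamts2 did not pass.

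Among 16 receptor genes, 8 fell and 2 rose, with a median of −1.004, and with the length offset 7 were lower and 5 higher at a median of −0.21. The laminin receptors Dag1 (dystroglycan, −1.68 ± 0.20, SE, log2), Itga6 (−1.35 ± 0.13), Itga7 (−2.16 ± 0.34), Itga3 (−2.12 ± 0.35) and Bcam (−1.32 ± 0.23) fell, as did Adgrg1, an adhesion receptor for type III collagen (−2.53 ± 0.22). Not all receptor chains went this way. With the length offset the integrin beta chain Itgb1 was higher (0.68 ± 0.16, SE, log2, edgeR adjusted p = 0.00297), and Itgb4 did not pass (−0.12 ± 0.43). Lair1, an inhibitory collagen receptor of immune cells, rose (1.21 ± 0.22). Of 12 basement membrane partners, 3 fell and 1 rose, where 30.5% of all genes fell and 27.8% rose. Agrn (−1.30 ± 0.23) and the integrin ligand Npnt (−1.62 ± 0.19) were lower and Smoc2 (1.37 ± 0.25) higher. With the length offset 2 were lower and 1 higher, and Agrn, at −0.39 ± 0.20, did not pass.

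Counts in the remaining lists again stand beside 27.8% of all genes higher and 30.5% lower, and 23.9% each way with the length offset. The list of 16 other interstitial matrix genes had 5 higher and 3 lower, with a median of 0.27, and 6 higher and 0 lower with the length offset. Mgp, an inhibitor of calcification, rose from 23.7 to 147 mean scaled CPM (2.65 ± 0.31, SE, log2), and the small proteoglycans Dcn (1.08 ± 0.22) and Ogn (1.77 ± 0.39), which are also among the meningeal markers, rose. Of 15 genes for matrix breakdown and its inhibitors, 3 rose and 6 fell, with the inhibitors Timp4 (1.26 ± 0.15) and Timp2 (−1.24 ± 0.14) moving in opposite directions, and with the length offset 4 were higher and 4 lower. Of 14 genes of transforming growth factor signalling, 1 rose (Ccn2, 1.71 ± 0.31) and 5 fell, against 3 higher and 2 lower with the length offset. Of 7 genes for glycation handling, Glo1, which clears methylglyoxal (0.89 ± 0.14), and Lgals3, which binds glycated proteins (1.15 ± 0.33), rose and 0 fell. Neither of these passed with the length offset, at 0.02 ± 0.16 for Glo1 and 0.49 ± 0.31 for Lgals3 (SE, log2). With that offset 1 of the 7 was higher, Cd36 (0.73 ± 0.27, SE, log2, edgeR adjusted p = 0.0401), and 0 were lower. With the offset for length and G and C content Lgals3 was the 1 higher (0.80 ± 0.30, SE, log2, edgeR adjusted p = 0.0373), and 0 were lower.

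Between old control and young control, no member passed. Of 48 members tested, 0 passed in either direction with edgeR, where 6 of 18281 genes (0.0328%) passed, all higher, and DESeq2 also gave 0 members. At an unadjusted edgeR p under 0.05 there were 2 of 48 members, both lower, where 692 of the 18281 genes were higher and 971 lower. The median log2 fold change over the members was 0.41, against 0.02 over all genes, with 35 positive and 13 negative. Without old control 4 and old Gly-Low 1 the members' median was −0.02. Likewise 0 members passed with the length offset (0.0985% of all genes), with the length and GC offset (0.514%), with the replicate block (0.0383%), with the length slopes as covariate (2.17%) and without those libraries (0.00537%).

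Col3a1 (chr1:45311538-45349706), which builds the fibrils of vessel walls and leptomeninges with type I, had the smallest p. It had 0.753, 0.992, 2.93 and 2.07 scaled CPM in young control and 0.483, 0.486, 0.0403 and 0.650 in old control, the last group on 1 to 17 counts. All old controls lay below all young controls, the 1 member of 48 for which the groups did not overlap, where 2.77% of all genes lay above and 2.96% below (5.74% in all). The log2 fold change was −2.06 ± 0.79 (SE, edgeR adjusted p = 0.441). Next were the type IX chain Col9a1 at −1.21 ± 0.52 (SE, log2, edgeR adjusted p = 0.518) and Lamb3 at 0.54 ± 0.26 (SE, log2, edgeR adjusted p = 0.567).

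The other fibrillar chains were at −1.03 ± 0.70 (SE, log2) for Col1a1 and −0.20 ± 0.55 for Col1a2. Col4a1 was at −0.10 ± 0.82 (SE, log2), Col4a2 at 1.13 ± 0.89 and Col6a1 at 0.41 ± 0.62. Col4a1 had 0.807 to 1.84 scaled CPM in 3 old controls and 7.27 in old control 4. Among laminins, Lama2 was at 0.46 ± 0.28 (SE, log2), Lamb1 at 0.49 ± 0.33, Lamc1 at 0.31 ± 0.58, Lama1 at −0.14 ± 1.11 and Lama4 at −0.26 ± 0.37. The interval of plus or minus 2 SE ran from −0.09 to 1.01 for Lama2 and from −1.74 to 1.54 for Col4a1, so changes of over 2-fold in either direction lay within it for Col4a1.

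Between old Gly-Low and old control, which share the old controls with the age comparison, no member passed either. Of 48 members tested, 0 passed with edgeR, 0 of all 18281 genes did (0%), and DESeq2 gave 0 members and 2 genes. At an unadjusted edgeR p under 0.05 there were 3 of 48 members, all higher, where 236 of the 18281 genes were higher and 197 lower. The median log2 fold change was 0.74 over the members and 0.03 over all genes, and all 11 laminin chains were positive, from 0.11 to 0.99. Old Gly-Low 1 held much of this, and without it the median was −0.12. Without it and old control 4 the median was 0.23, and with the offset for length and G and C content it was 0.23.

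Col3a1 had 4.38, 0.773 and 0.770 scaled CPM in old Gly-Low, all above the 4 old controls, whose highest was 0.650. The log2 fold change was 2.26 ± 0.82 (SE, edgeR adjusted p = 0.953), and 0.90 without old Gly-Low 1. Col1a1 had 4.18, 0.580 and 0.735 scaled CPM in old Gly-Low and 0.268 to 0.878 in old control, with a log2 fold change of 1.98 ± 0.73 (SE, edgeR adjusted p = 0.953) and 0.50 without old Gly-Low 1. So in both fibrillar chains a single library held most of the difference.

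Lama4 had 5.27, 3.63 and 3.43 scaled CPM in old Gly-Low and 1.89, 1.67, 1.90 and 2.95 in old control. It and Col3a1 were the 2 members of 48 for which old Gly-Low lay wholly above old control, where 3.02% of all genes did so (3.5% lay below, 6.52% in all). The log2 fold change of Lama4 was 0.99 ± 0.39 (SE, edgeR adjusted p = 0.953), and 0.76 without old Gly-Low 1. The other members stood at 1.24 ± 0.59 (SE, log2) for Col1a2, 1.18 ± 0.87 for Col4a1, 0.86 ± 0.93 for Col4a2, 1.09 ± 0.66 for Col6a1, 0.84 ± 1.18 for Lama1, 0.29 ± 0.30 for Lama2, 0.12 ± 0.35 for Lamb1 and 0.55 ± 0.62 for Lamc1. Col4a1 had 14.4 scaled CPM in old Gly-Low 1 and 1.55 and 2.49 in the other 2 libraries, and was at −0.44 ± 0.84 (SE, log2) without old Gly-Low 1.

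**Figure D4:**
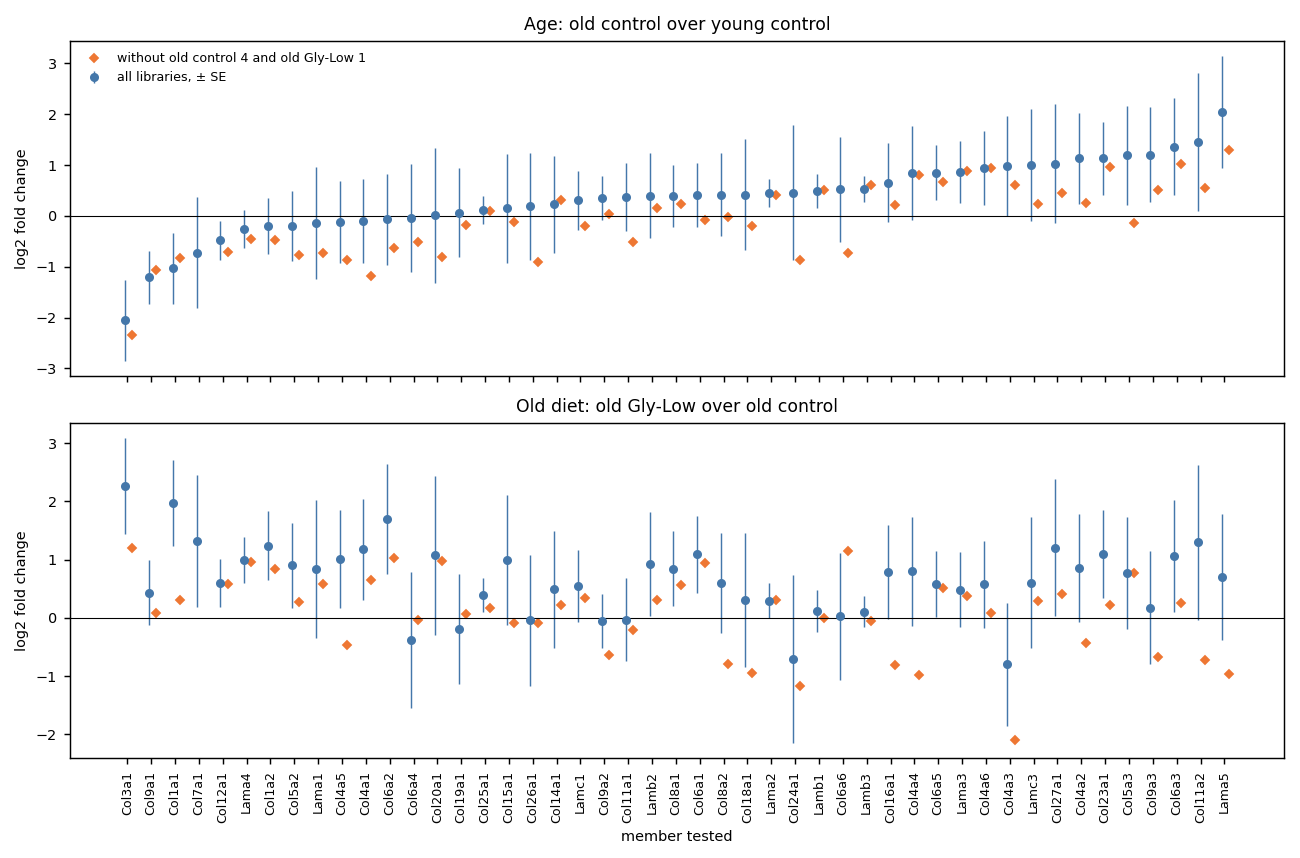
Log2 fold change with its SE of 47 of the 48 members tested for age (upper) and for the diet in old mice (lower), members in the same order. Diamonds give the value without old control 4 and old Gly-Low 1 where the member was tested. None passed in either comparison, and for the old diet most circles lie above 0 and many diamonds nearer to it.

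Of 13 meningeal fibroblast markers, 0 passed for the old diet or for age. Their log2 fold changes were positive for 12 of 13 with the old diet, against 9739 of 18281 genes, and for 4 of 13 with age, against 9480 of 18281, at medians of 1.19 and −0.71. Their sums did not overlap between old Gly-Low (253 to 292 scaled CPM) and old control (178 to 214). These sums include Pdgfra, also a precursor marker, at a mean of 93.7 scaled CPM in old Gly-Low and 105 in old control. The part of the meningeal markers in the values of the fibrillar collagens was not tested. None of the lists of partner genes had a member that passed for age or for the old diet. The lowest p in these lists for the old diet were those of Bgn, a small proteoglycan (1.41 ± 0.35, SE, log2), and Pcolce, an enhancer of procollagen cleavage (1.38 ± 0.36, SE, log2), both with an edgeR adjusted p of 0.953. Ddr2, a receptor for fibrillar collagen, was at 0.85 ± 0.24 (SE, log2).

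The members' levels were set beside the GC slope of the libraries, which is itself fitted from the deviations of all genes on their G and C content. After group means were removed from both, and over the 20 libraries, which share their depth and base composition between members, Pearson's r of the log2 level with the GC slope was positive for 50 of 51 members, with a median of 0.72. Over the 15490 protein-coding genes kept it was positive for 8189, with a median of 0.071, and the members are richer in G and C than most genes. It was highest for Lamc1 (0.934) and Lamb2 (0.900) and lowest for Col9a1 (−0.101) and Col1a1 (0.195). With the length slope r was positive for 50 of 51, with a median of 0.59 and a highest value of 0.929 for Col25a1, against 8027 of the 15490 genes and a median of 0.046. The summed level of all members was 586 scaled CPM in old Gly-Low 1 and 338 in old control 4, against 107 to 328 in the other 18 libraries.

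**Figure D5:**
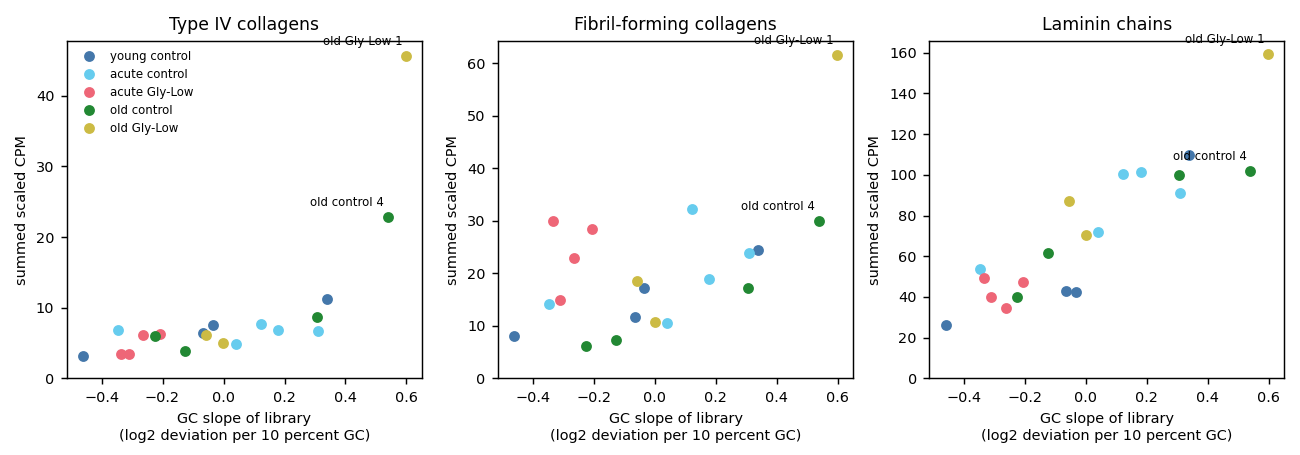
Summed scaled CPM of type IV collagens, fibril-forming collagens and laminin chains in each library against the GC slope of the library, coloured by group. Old Gly-Low 1 is highest in all 3 classes, and the laminin sum rises with the slope across groups.

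Acute control and young control mice had the same diet for the same time and differed in age by 1 month, and set the scale of differences between groups of like treatment. Of 51 members tested, 1 passed, higher in acute control, where 0.923% of 19061 genes were higher and 4.37% lower (5.29% in all). With the length offset (1.24% of all genes) and with the length and GC offset (2.23%), 0 members passed. Col4a5 lay wholly lower in acute control, at 0.226 to 0.747 scaled CPM against 1.00 to 1.63 in young control, where 2.11% of all genes lay above and 3.58% below (5.69% in all). Its log2 fold change was −1.20 ± 0.69 (SE, edgeR adjusted p = 0.341). In the same comparison 7 of 10 pituitary markers rose. All 11 laminins were positive, among them Lama2 (0.67 ± 0.24, SE, log2, edgeR adjusted p = 0.106), Lamb1 (0.62 ± 0.27), Lama4 (0.73 ± 0.32), Lamc1 (0.73 ± 0.48) and Lama1 (0.28 ± 0.86). Without young control 4, which had the highest Lamb1 level of its group at 18.5 scaled CPM, 5 members were higher, where 20.9% of all genes passed. The collagens were at 0.45 ± 0.73 (SE, log2) for Col1a1, 0.72 ± 0.47 for Col1a2, 0.34 ± 0.64 for Col3a1, −0.31 ± 0.65 for Col4a1, 0.22 ± 0.73 for Col4a2 and 0.77 ± 0.54 for Col6a1.

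The diet effect in old mice minus that in young mice was tested in a fit on all 20 libraries. Of 51 members, 6 differed, all with a higher value in old mice, where 36% of all genes passed (16.8% higher and 19.2% lower). Among them the difference was 1.91 ± 0.34 (SE, log2, edgeR adjusted p = 0.000367) for Col25a1, 1.501 ± 0.36 for Lama2, 1.14 ± 0.40 for Lamb1, 3.70 ± 1.31 for Col14a1 and 1.27 ± 0.48 for Lama4. In 16 fits without 1 library each, the call of Lama4 was lost in 12, that of Lamb1 in 7 and that of Col14a1 in 5, with an edgeR adjusted p of up to 0.159, 0.0884 and 0.0695, and those of Col25a1 and Lama2 in 0. For Col25a1 the old arm gave 0.40 ± 0.29 (SE, log2) and the acute arm −1.52 ± 0.15. With the length offset 1 of the 6 kept its call, Col25a1, which was the 1 member higher, and 1 lower, Lamb3, where 9.85% of all genes were higher and 13.2% lower (23.1% in all). With the length and GC offset Col25a1 was higher and Col8a2, Col9a2 and Lamb3 lower (10.9% and 12.5% of all genes, 23.4% in all). With the length slopes as covariate 0 were higher and 3 lower, Col9a3, Lama1 and Lamb2 (4.17% and 4.85% of all genes, 9.01% in all). The replicate block gave 6 higher and 0 lower (17.1% and 17.8% of all genes, 34.9% in all).

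Of the members named whatever their values, those whose difference did not pass were Col1a1 at 0.89 ± 1.09 (SE, log2), Col1a2 at 0.76 ± 0.70, Col3a1 at 1.98 ± 1.00, Col4a1 at 1.82 ± 1.00, Col4a2 at 2.02 ± 1.11, Col6a1 at 0.37 ± 0.79, Lama1 at 1.82 ± 1.31 and Lamc1 at 1.56 ± 0.72. Their intervals of plus or minus 2 SE are wide, from −0.02 to 3.98 for Col3a1 and from −0.64 to 2.16 for Col1a2. Only Lamc1, of these 8, had an interval above 0, from 0.13 to 3.00, and its edgeR adjusted p was 0.0947. Without old control 4 and old Gly-Low 1, 3 members were higher and 1 lower, where 28.7% of all genes passed. Without old Gly-Low 1 alone, 3 were higher and 3 lower, where 26.4% of all genes passed.

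Chains that share a trimer were compared as log2 ratios of scaled CPM with a two-sided exact permutation test over libraries. Of 12 tests (4 pairs in 3 comparisons), the lowest p was 0.0857, for Col4a1 over Col4a2 with age. This ratio went from 0.59 in young control to −0.67 in old control, a difference of −1.26 ± 0.51 (SE, 4 libraries each), and its adjusted p was 0.49, the lowest of the 12. The smallest two-sided p that these designs allow is 0.0159 for the acute diet, 0.0286 for age and 0.0571 for the old diet, so the last cannot reach 0.05. For the acute diet the ratio of Lamb1 over Lamc1 differed by −0.02 ± 0.33 (SE, log2), and that of Col1a1 over Col1a2 by −0.12 ± 0.98.

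Members that neighbour each other in the genome varied together to different degrees. After group means were removed, log2 levels of Col4a1 and Col4a2 had a Pearson's r of 0.857 over the 20 libraries, and Col6a1 and Col6a2, which are 85161 bases apart on the same strand, had 0.855. The head-to-head pair Col4a3 and Col4a4, 71 bases apart, had 0.639, and the head-to-head pair Col4a5 and Col4a6, 1308 bases apart, had 0.385. Col3a1 and Col5a2 had 0.626, while Col9a1 and Col19a1 had 0.0449. These points share depth and base composition, and the values are descriptions.

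By the same measure, the protein-coding genes with levels most like those of Col4a1 over the 20 libraries were Dlg5 (r = 0.928), Zic2 (0.923), Wasf1 (0.914), Kmt2d (0.911) and Dab2ip (0.904). Those most like Col1a1 were Tmem255b (0.770), Morc2b (0.756), Vwc2 (0.734), Irx5 (0.725) and Zfp628 (0.71004). No collagen or laminin was among either set of 5.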

How the data were processed

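The authors deposited unnormalized whole-number counts of reads by gene for 20 libraries made from poly-A RNA without strand information. Per the submitters' processing notes, the build was GRCm38 and the tools included DESeq2 1.20.0, HISAT2 2.0.5 and featureCounts 1.5.0-p3. For the annotation release and strand option used in counting, the sources used here give nothing. Symbols, positions, lengths and G and C content came from GENCODE on GRCm38, and 37 of 54532 identifiers had no match. Lengths are medians over basic transcripts.

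Counts were filtered with filterByExpr by group, scaled by TMM and tested with edgeR 4.0.16 in R 4.3.3 (quasi-likelihood F test, Benjamini-Hochberg over all genes tested, threshold 0.05). The acute diet was fitted on 9 libraries, age and the old diet on 11, and the young groups and the difference of diet effects on all 20. SE is the log2 fold change divided by the root of F. Scaled CPM uses the TMM factors of all 20 libraries. Alternatives were DESeq2 1.42.0, its size factors, no filter, other sets of libraries, the replicate number as a block, and corrections for length and G and C content. The length and GC offset, the fits without old control 4 and old Gly-Low 1, and the block and left-out libraries for the young groups and the difference of diet effects were chosen after seeing the data. The step was tested on simulated counts, where it recovered 71.9% of 2-fold and 100% of 4-fold changes for the acute diet over 16903 genes, with 6.18% false calls, and 64.6% and 97.0% for age over 17801 genes, with 3.64% false calls. These rates are not specific to the members, many of which have low counts. For age, Col3a1 at −2.06 ± 0.79 (SE, log2) did not pass.

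Of the members, 1 is in the counts and medians but is otherwise not reported here. Members and gene lists were chosen with earlier results of these data known. Named are, per comparison, up to 8 members past the threshold with the smallest p in each direction, 3 by smallest p if fewer than 3 pass, and 11 members whatever their values (Col1a1, Col1a2, Col3a1, Col4a1, Col4a2, Col6a1, Lama1, Lama2, Lama4, Lamb1 and Lamc1). Col11a1, Col8a1 and Lama3 and the members near the threshold are named beside them, a choice made after their values were seen, as are the partner genes. In old mice, deviations from the group mean correlated at 0.417, 0.272 and 0.253 between diets for libraries of the same title number. There 0 of 3 libraries correlated best with their own number. The same values were −0.0422 to 0.0016 for the acute diet (0 of 4 best with their own number). For age they were −0.0495 to 0.6 (2 of 4). No pairing was taken from these values. The main tests were unpaired, and the replicate number was a block only in alternative fits. The table's columns number old Gly-Low differently.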

Additional observations from a re-analysis of the deposited data

Results flagged for a closer look

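Among 21 named members, 84 groups of 4 or 5 libraries were checked for a library far from the others, and 9 were found, where chance gives about 1 in 20 groups. In 3 cases the library was high within old control: Col4a1 had 7.27 and Col4a5 had 2.56 scaled CPM in old control 4, and Lamb3 had 12.5 in old control 1, each above the other old controls. Old control 3 was low for Lama2 at 8.84 scaled CPM, where the others had 15.4 to 16.5. In acute Gly-Low, library 4 was high for Col1a1 at 7.96 scaled CPM, library 1 was high for Col6a1 at 9.25, and library 3 was low for Col4a2 at 0.136. Acute control 3 was high for Col9a2 at 5.47 scaled CPM and young control 3 was high for Col4a5 at 1.63.

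The diet effect differed between the old arm (5 months of diet) and the acute arm (1 week), by the test of the difference itself, for 5 of the named members. Age and time on the diet cannot be told apart in it. The differences, old minus acute on the log2 scale, were 1.91 for Col25a1, 1.501 for Lama2, 1.14 for Lamb1, 3.70 for Col14a1 and 1.27 for Lama4, with edgeR adjusted p of 0.000367, 0.00316, 0.0329, 0.0332 and 0.0477. Without 1 library each, Lama4 lost its call in 12 of 16 fits, Lamb1 in 7 and Col14a1 in 5, and with the length offset, as with the length and GC offset, Col25a1 alone of these 5 kept its call.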

How the results depend on the processing

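For the acute diet, 15 members passed (58.3% of all genes), against 18 with DESeq2 and 16 with no filter. There were 8 in the fit on all 20 libraries (46.8% of all genes) and 9 without acute controls 2, 3 and 5 (40.8%). Leaving out each library in turn gave 11 to 17. No share of all genes is given here for DESeq2, for no filter or for most fits without 1 library. Those counts are therefore not set against all genes. Lamc1 turned to 0.14 with the length and GC offset and to 1.10 with the length slope as a covariate, which also turned Lamb1 to 0.15 and Lamb2 to 2.54 (log2). In the difference of diet effects, 6 passed (36% of all genes), against 2 with the length offset (23.1%) and 3 with the covariate (9.01%). The covariate turned Lamb1 to −0.40 and Lama4 to −0.077. Without 1 library, 3 to 9 passed. The 3 came without acute control 2, acute Gly-Low 1 or old control 3. For the young groups, 1 passed (5.29% of all genes), and 0 to 5 without 1 library. With the length offset (1.24% of all genes), the covariate (0%), the length and GC offset (2.23%) or the replicate block (0%), 0 passed. The cause of these changes was not tested. For age and the old diet, 0 passed in each fit run. With the replicate block, 13 passed for the acute diet (4 higher, 9 lower), where 50% of all genes passed. Col4a5, Col5a1, Col8a1 and Col11a1 were then lost and Col1a2 and Col6a1 gained. The count of calls changed with the block for no other comparison but the young groups. Old mice without old control 3 gave the same fit as leaving that library out. Chain ratios without 1 library changed sign for Col1a1 over Col1a2 (acute diet −0.94 to 0.51, old diet −0.045 to 0.76) and Lamb1 over Lamc1 (acute diet −0.12 to 0.26). Many members had under 10 counts in some libraries, such as Col19a1 and Col14a1 in acute Gly-Low, and smaller changes there were not detectable at this depth.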
